A study of Arabidopsis thaliana with 12 samples.

Results

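The genes described here are 75 protein-coding genes of Arabidopsis thaliana that were higher in seedlings mutant for 2 DNA methyltransferases than in wild type. They were lower again in mutants that carry an altered methyltransferase transgene. Most of them, but not all, were silent or weakly expressed in wild type. They were chosen by their measured values, from 27654 protein-coding genes listed. On the scale log2(TPM + 0.5), where TPM is transcripts per 1000000, the lower of the 2 cc libraries had to lie at least 1 above the higher of the 2 Col-0 libraries and at least 1 above the highest of the 4 V1200R/cc libraries. The values in cc, Col-0 and V1200R/cc are therefore given as a description without a test, and the comparisons left to make are those of the CMT2/cc lines.

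RNA-seq was performed on whole seedlings after 10 days on medium with 1% sucrose at 22 °C, with 16 h of light and 8 h of dark, and gave 12 libraries, 2 for each of 6 groups. V1200R/cc lines 9 and 15 carry a genomic CMT2 fragment with the V1200R substitution and a FLAG tag in the cc background. CMT2/cc lines 19 and 1 carry the same fragment without the substitution, also in cc. The background cc combines insertion alleles of CMT2 and CMT3, cmt2-7 and cmt3-11, in which all 4 transgenic lines were made according to the labels, and Col-0 is the wild type. Each line is a single transformant, and a difference between lines cannot be told apart from the place and number of its insertions. Nothing in the labels says whether the 2 replicates of a group came from separate plants, so the p values measure only the spread between these libraries, which may be technical.

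CMT2 and CMT3 are chromomethylases, which methylate DNA where histone H3 carries methylation of lysine 9. CMT3 acts mainly on cytosines in the CHG context and CMT2 mainly on those in CHH, where H is any base but G. In Arabidopsis these marks silence transposable elements (TEs), and genes that lie beside or inside TEs, or that derive from them, can be silenced with them. The V1200R substitution places an arginine, the residue that CMT3 has at the equivalent position, in the catalytic domain of CMT2. The codon is the only stretch in which the 2 constructs were designed to differ, and it is shown in capitals in the mutagenic oligo and in the TAIR10 genome (chr4:10420449-10420472, plus strand).
V1200R forward oligo: gttctaacaCGGccaacatgccac
CMT2 in TAIR10: gttctaacaGTCccaacatgccac

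The libraries hold between 929522229 and 1452952086 aligned bases, and 1 TPM corresponds to a mean coverage between 0.593 and 0.934 reads per base. The CMT2 transcript was at 112 to 159 TPM in V1200R/cc, 79.6 and 80.8 TPM in line 19 of CMT2/cc, 114 and 123 in its line 1, 1.70 and 1.99 in cc, against 15.002 and 13.3 in Col-0. The CMT3 transcript did not follow these labels. It was at 5.93 to 6.29 TPM in V1200R/cc, 7.02 and 5.69 TPM in line 19 of CMT2/cc, 5.30 and 4.72 in its line 1, 16.4 and 14.0 in cc, against 12.9 and 11.5 in Col-0, so that all 8 transgenic libraries lay below Col-0 and both libraries labelled cc lay above it. The libraries labelled cc therefore differ from the transgenic lines at CMT3 as well as in the transgene, and the part of this in the differences from cc given below was not tested. In what follows, cc stands for the libraries labelled so. All libraries expressed leaf and root markers, as whole seedlings do, with RBCS1A, the small subunit of Rubisco, between 13081 and 18796 TPM. Seed storage transcripts stood out in V1200R/cc line 15, where the cruciferin CRA1 was at 11.8 and 13.6 TPM, against 0.123 and 1.68 in V1200R/cc line 9, 1.59 and 0.217 in line 19 of CMT2/cc, 0 and 0.381 in its line 1, 0.227 and 0.145 in cc, against 0.380 and 0.320 in Col-0. Because whole seedlings were used, fewer cells that express a gene and less RNA per cell cannot be told apart.

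Expression in cc ranged over the 75 genes from a mean of 0.586 TPM to 145 TPM, with a median of 4.31 TPM. In 22 genes the cc mean was 10 TPM or more and in 42 it was below 5 TPM. The lower cc library covered the genes between 0.391 and 88.0 times per base, with a median of 2.49, so the weakest members rest on few reads. All 75 passed the filter on low values, at least 0.5 TPM in at least 2 libraries, through the cc libraries that chose them. In the groups that the rule required to be lower than cc, 66 were at 1 TPM or less in all 4 V1200R/cc libraries and 64 in both Col-0 libraries, and 37 were listed at 0 in every V1200R/cc library. In all, 132 protein-coding genes met the part of the rule that sets cc against Col-0, and the other 57 did not meet the part that sets it against V1200R/cc.

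The rule does not use CMT2/cc, where the transgene is the unaltered CMT2. A gene was counted as low in a CMT2/cc line when both libraries of the line lay at least 1 below the lower cc library. In line 19, 47 of the 75 genes (62.7%) were low, where 0.608% of the 20890 protein-coding genes tested were. In line 1, 56 (74.7%) were low, where 0.675% of the genes tested were. In both lines 44 genes were low (background 0.407%), 3 were low in line 19 only, 12 in line 1 only and 16 in neither. These counts share the cc libraries with the rule, which picked genes for being high there, so the shares are a description. Of the 57 derepressed genes that did not meet the rule, 11 were low in line 19 (19.3%) and 9 in line 1 (15.8%).

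Over the 75 genes the median difference from cc was -1.49 for line 19 of CMT2/cc and -1.99 for line 1 (log2), where the medians over all protein-coding genes tested were -0.02 and -0.03. Set against Col-0 instead, 21 genes stayed at least 1 above the higher Col-0 library in both libraries of line 19 (28.0%, background 0.378%), 14 did so in line 1 (18.7%, background 0.354%) and 12 in both lines. In neither line did 52 of the 75 genes stay above Col-0 by that measure. With a pseudocount of 0.1 in place of 0.5 the number low in line 19 was 73, of 109 genes that then met the rule.

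**Figure D1:**
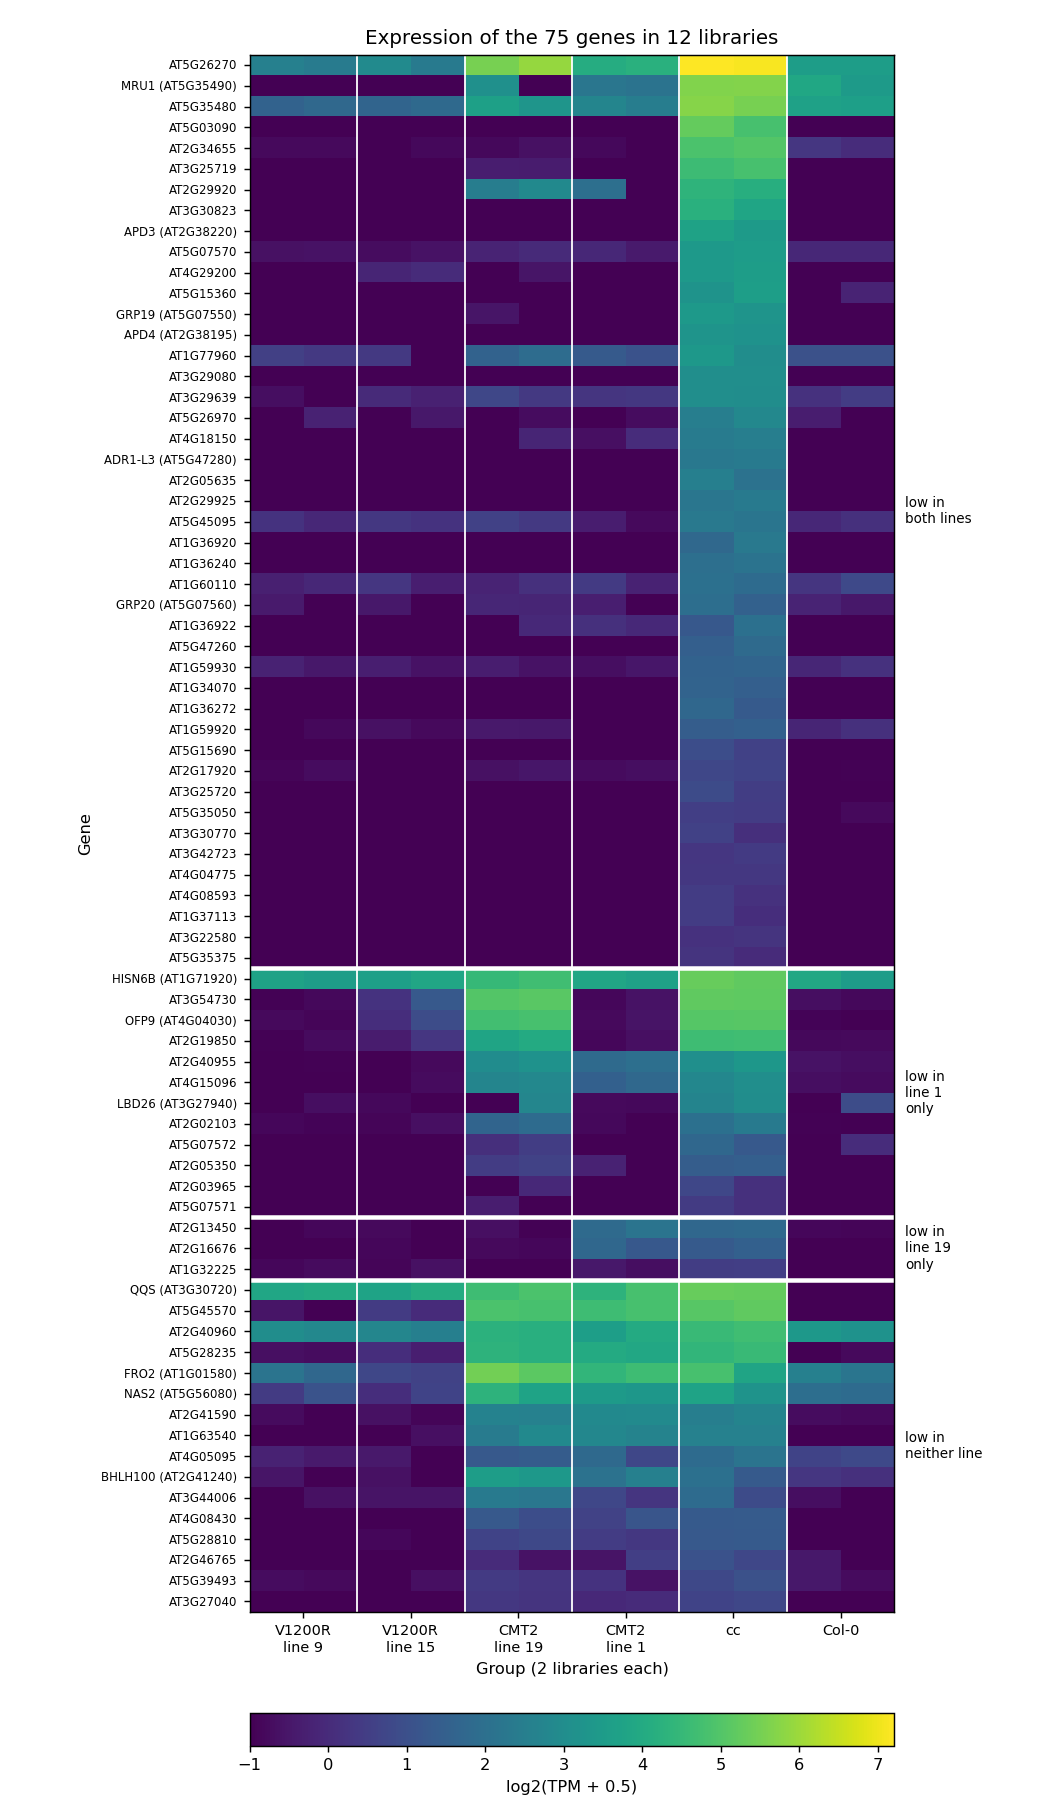
Expression of the 75 genes (rows) in the 12 libraries (columns, 2 per group) as log2(TPM + 0.5), with rows grouped by whether both libraries of a CMT2/cc line lay at least 1 below the lower cc library and ordered by the cc mean. The first block of 44 genes is darker in both CMT2/cc lines than in cc, and the last block of 16 genes is mixed, with AT2G46765 darker in both CMT2/cc lines than in cc and BHLH100 brighter in both.

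The rule did not use the CMT2/cc libraries, and these allow a test of line 19 against line 1, 2 transformants of the same construct. A limma model of log2(TPM + 0.5) over all 23614 features tested called 8 of the 75 genes (adjusted p under 0.05 and an absolute log2 difference of 1 or more). Higher in line 19 were 6 genes (8.0%, where 0.0383% of the protein-coding genes tested were called so), and lower in line 19 were 2 genes (2.67%, where 0.0144% were). Of the 6, 3 are the near-identical OFP9 copies described below, so these calls are not independent of each other. Over all protein-coding genes only 11 were called, 8 higher and 3 lower, and 8 of the 11 were among the 75. This share was 6 of 16 without line 1 replicate 2, 6 of 15 without line 19 replicate 2, 7 of 15 without line 1 replicate 1 and 8 of 14 without line 19 replicate 1. At an unadjusted p below 0.05 the model had 19 of the 75 higher and 2 lower in line 19, against 6.57% of all protein-coding genes in either direction. The median of the absolute log2 fold change between the lines was 0.26 over the 75 genes and 0.09 over all protein-coding genes tested.

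The error in this model is pooled over all 6 groups, and the rule selects genes whose values in Col-0 and V1200R/cc are close to 0 and alike. In a fit of the 4 CMT2/cc libraries alone, 3 of the 75 genes were called higher in line 19, all 3 of them the OFP9 copies described next, and 0 lower, with 4 lower at an unadjusted p below 0.05 (5 of the 8 calls were lost, with adjusted p between 0.13 and 0.33).

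The genes with the largest differences between the lines were OFP9 (AT4G04030, chr4:1936653-1937972, minus strand) and 2 genes nearly identical to it, AT3G54730 (chr3:20259003-20260458, plus strand) and AT2G19850 (chr2:8568569-8569890, plus strand). OFP9 is an OVATE family protein, a plant-specific family of transcriptional repressors, and both other genes are annotated as transcription repressors. The 3 genes are between 97.7% and 98.9% identical over 1317 to 1322 aligned bases, and between 49.8% and 77.3% of their exonic words of 50 bases occur elsewhere in the genome, so reads of a transcript cannot be assigned with certainty to the gene it came from. How close they are can be seen in a stretch of 120 coding bases, the one with the most differences, in which only the 2 capitals differ between the copies.
AT4G04030, chr4:1937624-1937743, minus strand: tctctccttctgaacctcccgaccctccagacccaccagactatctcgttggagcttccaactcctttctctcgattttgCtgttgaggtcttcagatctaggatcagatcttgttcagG
AT3G54730, chr3:20259359-20259478, plus strand: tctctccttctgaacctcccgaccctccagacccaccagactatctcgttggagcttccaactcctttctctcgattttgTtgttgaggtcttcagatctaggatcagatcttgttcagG
AT2G19850, chr2:8568803-8568922, plus strand: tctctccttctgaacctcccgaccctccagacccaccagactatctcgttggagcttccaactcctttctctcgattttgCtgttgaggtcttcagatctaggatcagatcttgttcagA

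OFP9 was at 0.0823 and 0.0413 TPM (line 9) and 0.548 and 1.39 TPM (line 15) in V1200R/cc, 25.7 and 27.7 TPM (line 19) and 0.0799 and 0.169 TPM (line 1) in CMT2/cc, 32.7 and 33.4 TPM in cc, against 0.0293 and 0 TPM in Col-0. Line 19 lay just below cc, and all other libraries outside cc were at 1.39 TPM or less, so that lines 19 and 1 did not overlap. The log2 fold change of line 19 over line 1 was 5.45 (SE 0.25, limma adjusted p = 9.8e-06). AT3G54730 was at 0.0175 and 0.0645 TPM (line 9) and 0.646 and 1.94 TPM (line 15) in V1200R/cc, 31.6 and 34.0 TPM (line 19) and 0.0499 and 0.163 TPM (line 1) in CMT2/cc, 36.8 and 36.0 TPM in cc, against 0.122 and 0.0684 TPM in Col-0. It too was close to the cc level in line 19 and near 0 in line 1, with a log2 fold change of 5.78 (SE 0.29, limma adjusted p = 2.2e-05). AT2G19850 was at 0.0192 and 0.0923 TPM (line 9) and 0.280 and 0.744 TPM (line 15) in V1200R/cc, 13.3 and 15.8 TPM (line 19) and 0.0549 and 0.130 TPM (line 1) in CMT2/cc, 25.1 and 25.5 TPM in cc, against 0.0670 and 0.0753 TPM in Col-0. Here the line 19 level was lower than in cc, and its log2 fold change over line 1 was 4.67 (SE 0.23, limma adjusted p = 1.7e-05).

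Summed over the 3 copies, the level was 0.119 and 0.198 TPM (line 9) and 1.47 and 4.08 (line 15) in V1200R/cc, 70.6 and 77.5 (line 19) and 0.185 and 0.462 (line 1) in CMT2/cc, 94.6 and 95.0 in cc, against 0.218 and 0.144 in Col-0. The sum does not depend on how reads were divided among the copies. How reads with several alignments were counted is not given, so some may be counted more than once or left out. Both libraries of V1200R/cc line 15 were thus above those of V1200R/cc line 9 and Col-0, at a small part of the level in cc. The 3 calls were kept in all 21 alternative settings, with adjusted p from 1.96e-06 to 0.0386.

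**Figure D2:**
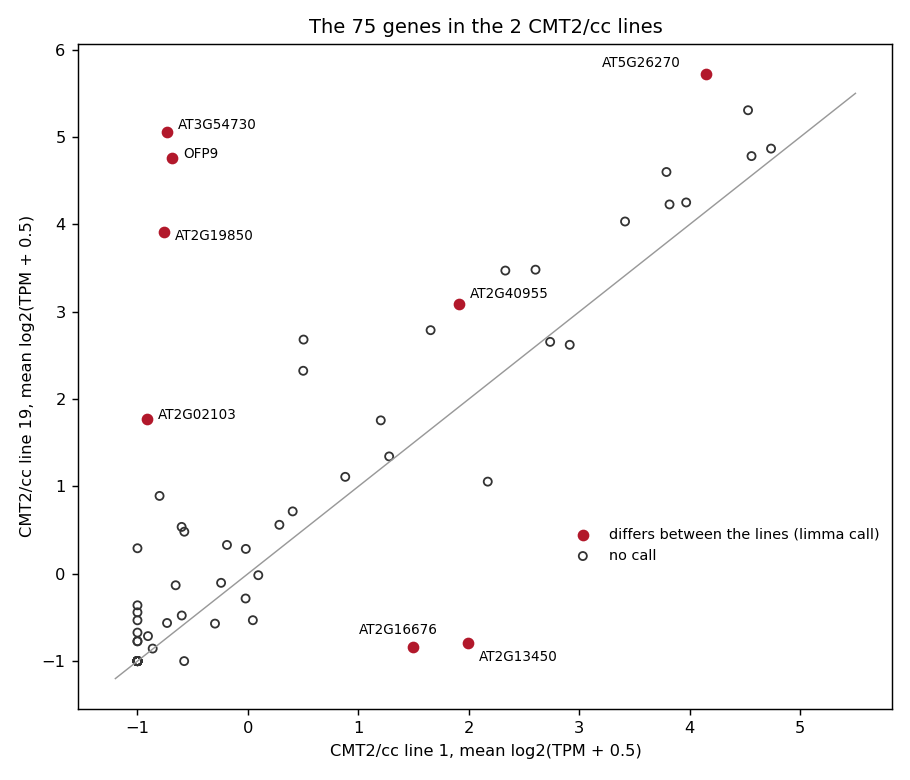
Mean log2(TPM + 0.5) of the 75 genes in CMT2/cc line 1 (x axis) and CMT2/cc line 19 (y axis), with the 8 genes called by limma filled and the line of equal levels drawn. OFP9 and its copies stand at the upper left, high in line 19 and near 0 in line 1, and AT2G13450 and AT2G16676 at the lower right, in the opposite arrangement.

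Another family split the other way within itself. Of the 75 genes, 4 are annotated as Ta11-like non-LTR retrotransposon genes, after a family of long interspersed elements, although the files list them as protein-coding, and AT2G17920, annotated as a nucleic acid binding protein, aligns with those 4. All 5 lie on chromosome 2. Unlike the OFP9 copies they are only 57.0% to 72.7% identical over their aligned bases, and at most 20.4% of the exonic words of any of them occur elsewhere, the highest share being that of AT2G13450. They are shown over the 90 coding bases that are most alike, with the 55 bases identical in all 5 in capitals.
AT2G41590, chr2:17344154-17344243, plus strand: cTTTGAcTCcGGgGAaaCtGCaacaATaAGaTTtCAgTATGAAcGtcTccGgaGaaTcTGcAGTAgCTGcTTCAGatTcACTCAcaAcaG
AT2G02103, chr2:530993-531082, minus strand: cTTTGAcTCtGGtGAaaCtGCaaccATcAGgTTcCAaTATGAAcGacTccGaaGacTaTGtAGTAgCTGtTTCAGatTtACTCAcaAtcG
AT2G13450, chr2:5599280-5599369, minus strand: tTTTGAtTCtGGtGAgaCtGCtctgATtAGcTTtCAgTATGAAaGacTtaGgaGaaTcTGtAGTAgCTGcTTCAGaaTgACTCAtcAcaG
AT2G16676, chr2:7231262-7231351, minus strand: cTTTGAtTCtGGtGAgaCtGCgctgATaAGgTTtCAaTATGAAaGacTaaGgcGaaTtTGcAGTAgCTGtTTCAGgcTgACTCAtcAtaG
AT2G17920, chr2:7783362-7783451, plus strand: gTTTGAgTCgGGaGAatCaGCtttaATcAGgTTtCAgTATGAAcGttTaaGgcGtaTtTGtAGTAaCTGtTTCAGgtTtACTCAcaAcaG

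AT2G41590 was at 0.0882 and 0 TPM (line 9) and 0.146 and 0.0386 TPM (line 15) in V1200R/cc, 5.68 and 5.62 TPM (line 19) and 6.90 and 7.17 TPM (line 1) in CMT2/cc, 5.20 and 6.05 TPM in cc, against 0.102 and 0.0745 TPM in Col-0. Both CMT2/cc lines were at the cc level, and they did not differ by the test (log2 fold change of line 19 over line 1 -0.29, SE 0.17, limma adjusted p = 0.79). AT2G02103 was at 0.0520 and 0.0256 TPM (line 9) and 0.0432 and 0.130 TPM (line 15) in V1200R/cc, 2.64 and 3.20 TPM (line 19) and 0.0660 and 0 TPM (line 1) in CMT2/cc, 3.56 and 4.77 TPM in cc, against 0.0201 and 0 TPM in Col-0. Line 19 was near cc and line 1 near 0, a log2 fold change of 2.68 (SE 0.22, limma adjusted p = 0.00073).

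AT2G13450 showed the opposite, with 0 and 0.0534 TPM (line 9) and 0.0802 and 0 TPM (line 15) in V1200R/cc, 0.135 and 0.0213 TPM (line 19) and 3.08 and 3.93 TPM (line 1) in CMT2/cc, 2.87 and 3.001 TPM in cc, against 0.0561 and 0.0420 TPM in Col-0. Its log2 fold change of line 19 over line 1 was -2.79 (SE 0.22, limma adjusted p = 0.00047). AT2G16676 was at 0 and 0 TPM (line 9) and 0.0520 and 0 TPM (line 15) in V1200R/cc, 0.0723 and 0.0471 TPM (line 19) and 2.82 and 1.90 TPM (line 1) in CMT2/cc, 2.03 and 2.36 TPM in cc, against 0 and 0 TPM in Col-0. It was high in line 1 and near 0 in line 19, with a log2 fold change of -2.34 (SE 0.23, limma adjusted p = 0.0026). AT2G17920 was near 0 in both CMT2/cc lines, at 0.151 and 0.203 TPM in line 19, 0.0876 and 0.117 in line 1 and 1.18 and 1.05 in cc. The calls of AT2G02103, AT2G13450 and AT2G16676 were kept in all settings but the fit of the 4 CMT2/cc libraries alone, where the adjusted p values were 0.13, 0.17 and 0.26. Over all settings the log2 fold change of AT2G16676 lay between -3.92 and -1.65.

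TE genes annotated next to these genes had the same arrangement. AT2G13460, 383 bases from AT2G13450, held 1.54 and 2.29 TPM in line 1, 0.823 and 1.25 TPM in cc and no signal in line 19, V1200R/cc or Col-0, where it was listed at 0 (limma adjusted p = 0.006 for line 19 against line 1). AT2G16680, 69 bases from AT2G16676, was listed at 0 in the same groups and was at 0.971 and 1.26 TPM in line 1 and 1.22 and 1.04 TPM in cc (limma adjusted p = 0.019). AT2G41580, 272 bases from AT2G41590, was at 1.94 and 1.92 TPM in line 19, 2.00 and 2.56 in line 1, 2.03 and 2.79 in cc, against 0.0577 and 0.0166 in Col-0, high in both lines as AT2G41590 was. Whether a gene and a TE gene so close share transcripts was not tested, and their values are not independent. Over the alternatives the adjusted p of AT2G13460 lay between 0.0021 and 0.26 and that of AT2G16680 between 0.00030 and 0.25, and both calls were lost without either line 19 library and without line 1 replicate 2, among other settings.

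AT5G26270, an uncharacterized protein (chr5:9206375-9208136, plus strand), had the highest cc level of the 75 genes, with 5.48 and 4.85 TPM (line 9) and 7.11 and 4.60 TPM (line 15) in V1200R/cc, 45.3 and 60.1 TPM (line 19) and 16.6 and 17.9 TPM (line 1) in CMT2/cc, 148 and 142 TPM in cc, against 11.5 and 11.3 TPM in Col-0. Neither CMT2/cc line overlapped cc, and line 19 stayed above line 1 (log2 fold change 1.57, SE 0.18, limma adjusted p = 0.0079). The call was lost without line 19 replicate 2 (log2 fold change 1.37, adjusted p = 0.062), without line 1 replicate 1 (1.52, 0.084), without line 1 replicate 2 (1.62, 0.054) and in the fit of the 4 libraries alone (1.57, 0.31), and over all 20 alternatives the adjusted p lay between 0.0016 and 0.31.

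AT2G40955 (chr2:17092669-17095132, plus strand) and AT4G15096 (chr4:8620245-8622702, plus strand) are 99.7% identical over 2391 bases, and their proteins are uncharacterized. Their summed level was 0 and 0.0129 TPM (line 9) and 0 and 0.168 (line 15) in V1200R/cc, 13.7 and 15.2 (line 19) and 5.42 and 6.42 (line 1) in CMT2/cc, 14.6 and 17.4 in cc, against 0.268 and 0.209 in Col-0. Line 19 was close to cc and line 1 intermediate. The call was made for AT2G40955 (log2 fold change of line 19 over line 1 1.19, SE 0.17, limma adjusted p = 0.038) and not for AT4G15096 (1.13, SE 0.18, adjusted p = 0.063), and that of AT2G40955 was kept in only 5 of 20 alternatives, with adjusted p from 0.014 to 0.45. It was lost without any single library of the 4 transgenic lines or of Col-0, and without cc replicate 2.

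**Figure D3:**
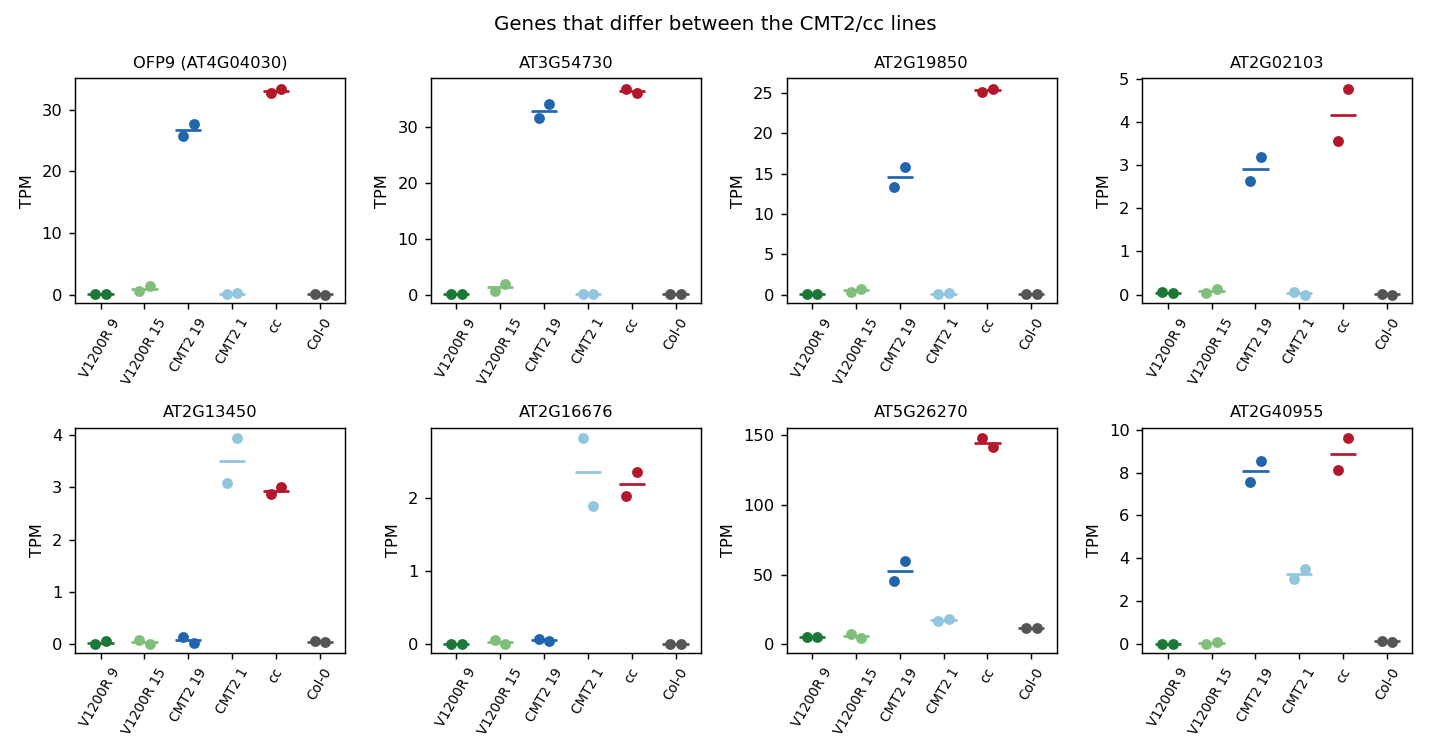
TPM of the 8 genes called between the CMT2/cc lines in each library (points) with the mean of the 2 libraries of a group (bar). OFP9 and its copies and AT2G02103 are near 0 in line 1, AT2G13450 and AT2G16676 are near 0 in line 19, and AT2G40955 is intermediate in line 1. AT5G26270 is below cc in both lines and lower in line 1 than in line 19.

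Other genes among the 10 with the largest differences between the lines had replicates that disagreed. LBD26 (AT3G27940), a transcription factor of the LOB domain family, was listed at 0 in line 19 replicate 1 and was at 6.38 TPM in replicate 2, against 0.0787 and 0.0700 TPM in line 1 and 5.98 and 7.61 TPM in cc. A TE that overlaps the start of the gene, AT3TE43080, was at 0.847 and 1.31 TPM in line 19, 0 and 0 in line 1 and 2.34 and 2.21 in cc. The call of this TE (log2 fold change 1.64, limma adjusted p = 0.038) was kept in 5 of 19 alternatives, with adjusted p from 0.011 to 0.38. AT2G29920, an uncharacterized protein, was at 5.03 and 6.94 TPM in line 19, 3.52 and 0 TPM in line 1 and 19.7 and 17.4 TPM in cc. The uncharacterized AT3G44006 was at 4.77 and 4.26 TPM in line 19, 1.18 and 0.695 in line 1 and 3.19 and 1.35 in cc (log2 fold change 1.82, SE 0.33, limma adjusted p = 0.12), without a call.

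The 16 genes that were low in neither CMT2/cc line included 4 genes of the Ulp1 protease family, whose members remove the small modifier SUMO from proteins. AT5G45570 (chr5:18471498-18475574, plus strand) was at 0.187 and 0 TPM (line 9) and 0.850 and 0.498 TPM (line 15) in V1200R/cc, 29.3 and 28.1 TPM (line 19) and 24.8 and 27.5 TPM (line 1) in CMT2/cc, 33.5 and 36.2 TPM in cc, against 0 and 0 TPM in Col-0. The level in both CMT2/cc lines was slightly below cc and far above that of V1200R/cc and Col-0. AT5G28235 was at 0.110 to 0.554 TPM in V1200R/cc, 19.2 and 17.9 TPM in line 19 of CMT2/cc, 15.7 and 14.6 in its line 1, 20.5 and 23.2 in cc, against 0 and 0.0801 in Col-0, the same arrangement. AT4G08430 and AT5G28810 were weaker. AT4G08430 was at 1.94 and 1.41 TPM in line 19, 1.03 and 1.72 in line 1 and 2.01 and 2.05 in cc, and AT5G28810 at 1.07 and 1.22 TPM in line 19, 0.889 and 0.763 in line 1 and 1.98 and 2.00 in cc. The 4 genes are between 91.97% and 99.4% identical to each other, and 18.3% to 77.2% of their exonic words occur elsewhere, so the expression of one could be read partly as that of another. All 4 overlap annotated TEs, and TEs in or beside 3 of them met the same rule. For example, AT5TE37180, 325 bases from AT5G28235, was at 15.8 and 16.1 TPM in line 19, 14.6 and 15.9 in line 1, 16.9 and 20.6 in cc, against 0 and 0.0595 in Col-0.

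Of the 10 genes that stayed closest to cc over the 4 CMT2/cc libraries, AT1G63540, a hydroxyproline-rich glycoprotein family gene with no exonic word elsewhere, was a case without near copies. It was listed at 0 in V1200R/cc line 9 and in Col-0 and was at 0 and 0.127 TPM in line 15 of V1200R/cc, 4.83 and 6.94 in line 19 of CMT2/cc, 6.40 and 5.93 in its line 1 and 5.60 and 5.58 in cc. Line 19 overlapped cc, and both libraries of line 1 lay above both of cc. AT3G27040, which encodes a MATH domain protein, was at 0.764 and 0.673 TPM in line 19, 0.461 and 0.513 in line 1 and 1.07 and 1.18 in cc and was listed at 0 in all V1200R/cc and Col-0 libraries.

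HISN6B (AT1G71920), an aminotransferase of histidine biosynthesis, and AT2G40960, an R3H nucleic acid binding protein gene, were expressed in every group. HISN6B was at 11.3 to 13.9 TPM in V1200R/cc, 22.4 and 25.2 TPM in line 19 of CMT2/cc, 14.1 and 12.6 in its line 1, 38.8 and 36.6 in cc, against 14.7 and 11.03 in Col-0. V1200R/cc and line 1 overlapped Col-0, and line 19 lay between these and cc (log2 fold change of line 19 over line 1 0.81, SE 0.14, limma adjusted p = 0.10). The words of HISN6B are shared for 81.9% with other places in the genome, so part of its value may come from another locus. AT2G40960 begins directly after AT2G40955 on the same strand, shares a stretch of 355 identical bases with it, and was at 5.28 to 7.57 TPM in V1200R/cc, 18.99 and 17.5 TPM in line 19, 11.7 and 15.8 in line 1, 23.1 and 25.2 in cc, against 9.99 and 8.67 in Col-0.

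QQS (AT3G30720), a gene known only from Arabidopsis thaliana that affects starch content and whose silencing by methylation varies among plants, was partly expressed in V1200R/cc. It was at 14.1 and 15.4 TPM (line 9) and 13.1 and 16.0 TPM (line 15) in V1200R/cc, 25.1 and 29.1 TPM (line 19) and 19.3 and 27.5 TPM (line 1) in CMT2/cc, 38.9 and 38.0 TPM in cc, against 0 and 0 TPM in Col-0. The levels were ordered cc, both CMT2/cc lines, both V1200R/cc lines and Col-0, and lines 19 and 1 overlapped. It was the only one of the 75 genes at which all 4 V1200R/cc libraries lay at least 1 above Col-0, which 0.364% of the protein-coding genes tested did. QQS lies wholly within an annotated TE, and TEs cover 76.8% of the bases within 10 kb on either side.

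The reverse was seen at MRU1 (AT5G35490), named for its response in a mutant that overaccumulates methionine, and at AT5G35480, an uncharacterized protein encoded beside it on the other strand. MRU1 was listed at 0 in all V1200R/cc libraries and was at 8.13 and 0 TPM in line 19 of CMT2/cc, 4.19 and 3.83 in its line 1, 50.5 and 51.6 in cc, against 14.4 and 10.6 in Col-0. Line 19 disagreed with itself, with replicate 2 at 0. AT5G35480 was at 2.49 to 2.99 TPM in V1200R/cc, 12.3 and 9.27 TPM in line 19, 6.12 and 5.08 in line 1, 52.0 and 45.4 in cc, against 12.5 and 11.8 in Col-0. These were the only 2 of the 75 genes at which all 4 V1200R/cc libraries lay at least 1 below Col-0, which 0.196% of the genes tested did. The TE AT5TE48725, which overlaps MRU1, was at 0.173 to 0.341 TPM in V1200R/cc, 1.04 and 0.843 TPM in line 19, 0.167 and 0.255 in line 1, 5.68 and 4.51 in cc, against 0.398 and 0.887 in Col-0.

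The 3 genes furthest above cc, by their mean over the 4 CMT2/cc libraries, were genes of iron uptake, which roots induce when iron is short. FRO2 (AT1G01580), the ferric chelate reductase of the root surface, was at 3.97 and 2.84 TPM (line 9) and 1.18 and 1.02 TPM (line 15) in V1200R/cc, 43.9 and 34.8 TPM (line 19) and 20.7 and 24.6 TPM (line 1) in CMT2/cc, 27.7 and 13.5 TPM in cc, against 5.54 and 4.11 TPM in Col-0. Line 19 was above both cc libraries, line 1 overlapped them, and both V1200R/cc lines were below Col-0. NAS2 (AT5G56080), which makes the metal chelator nicotianamine, was at 0.556 to 1.64 TPM in V1200R/cc, 19.3 and 13.0 TPM in line 19, 10.6 and 9.75 in line 1, 13.2 and 8.85 in cc, against 3.42 and 3.19 in Col-0. BHLH100 (AT2G41240), a transcription factor of the iron deficiency response, was at 0 to 0.188 TPM in V1200R/cc, 11.3 and 9.90 TPM in line 19, 3.75 and 5.45 in line 1, 3.59 and 1.98 in cc, against 0.727 and 0.597 in Col-0. The cc libraries differed from each other by 1.00, 0.55 and 0.72 on the log2 scale in FRO2, NAS2 and BHLH100, where the median over the 75 genes was 0.17. None of the 3 was called between the lines (log2 fold changes 0.78, 0.62 and 1.14, limma adjusted p = 0.67, 0.73 and 0.44).

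**Figure D4:**
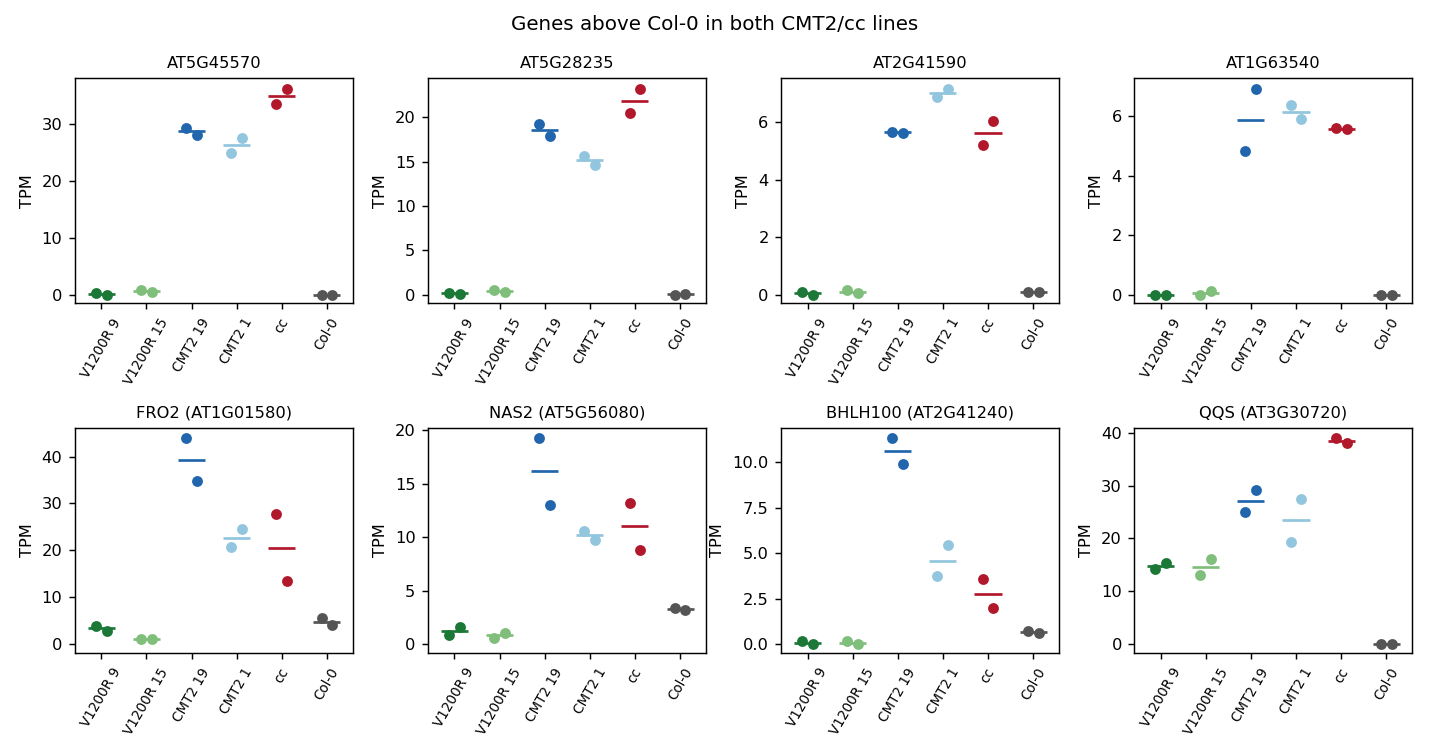
TPM in each library (points) and group means (bars) of 8 genes that were low in neither CMT2/cc line. The Ulp1 genes AT5G45570 and AT5G28235, AT2G41590 and AT1G63540 are near 0 in V1200R/cc and Col-0, FRO2, NAS2 and BHLH100 are lower in V1200R/cc than in Col-0, and QQS is between 13.1 and 16.0 TPM in V1200R/cc and listed at 0 in Col-0.

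The largest block, 44 genes, was low in both CMT2/cc lines, and in 22 of the 75 genes cc was the only group with any value above 0. The 5 genes with the largest difference below cc over the CMT2/cc libraries were AT5G03090, AT2G34655, AT3G25719, AT3G30823 and APD3. AT5G03090, annotated as an Mto 1 responding down protein, was listed at 0 in all 10 transgenic and Col-0 libraries and was at 38.2 and 27.8 TPM in cc. No TE is annotated within 10 kb of it. AT2G34655 was at 0 to 0.0820 TPM in V1200R/cc, 0.0693 and 0.153 TPM in line 19, 0.0705 and 0 in line 1, 29.3 and 32.0 in cc, against 0.732 and 0.533 in Col-0. AT3G25719 was at 0.286 and 0.271 TPM in line 19, 0 in line 1 and 24.5 and 27.9 TPM in cc, and AT3G30823 was at 18.0 and 13.8 TPM in cc alone. All 3 of these encode uncharacterized proteins.

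APD3 (AT2G38220) and APD4 (AT2G38195), neighbouring RING/U-box genes that are 99.0% identical over 3041 bases, were listed at 0 in every library but those of cc, where APD3 was at 12.7 and 10.6 TPM and APD4 at 9.01 and 8.64 TPM. Likewise ADR1-L3 (AT5G47280), of a family of helper immune receptors, and its neighbour AT5G47260, a putative disease resistance gene, were listed at 0 outside cc, where ADR1-L3 was at 4.37 and 4.78 TPM and AT5G47260 at 2.29 and 3.10 TPM. Both lie within chr5:19189411-19195559. Such neighbouring members made 9 clusters within 10 kb of each other, which together held 21 of the 75 genes. The share over all protein-coding genes was not computed. Some neighbours are near-identical copies, as APD3 and APD4 are, or overlap each other, as AT2G29920 and AT2G29925 do. Whether shared reads placed such neighbours among the 75 together was not tested.

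The largest cluster was at chr5:2388225-2397548, where 5 members lie side by side in a group of glycine-rich oleosin genes whose products are known from the pollen coat. GRP19 (AT5G07550) was listed at 0 in V1200R/cc and was at 0.185 and 0 TPM in line 19 of CMT2/cc, 0 and 0 in line 1, 10.3 and 9.10 in cc, against 0 and 0 in Col-0. GRP20 (AT5G07560) was at 0 to 0.260 TPM in V1200R/cc, 0.425 and 0.400 TPM in line 19, 0.308 and 0 in line 1, 3.38 and 2.44 in cc, against 0.377 and 0.220 in Col-0. AT5G07570, a glycine/proline-rich protein gene, was at 0.380 and 0.484 TPM in line 19, 0.442 and 0.258 in line 1 and 10.4 and 11.2 in cc. AT5G07571, an oleosin family gene, was at 0.831 and 0.592 TPM in cc, and AT5G07572, which overlaps it on the other strand, was at 0.577 and 0.892 TPM in line 19, 0 and 0 in line 1 and 2.85 and 1.93 in cc. Of other genes active in pollen or flowers, the pollen marker VGD1 and the flower marker AP3 were listed at 0 in cc. The flower marker AG was listed at 0 in all 10 libraries outside cc and was at 0.400 and 0.167 TPM in cc. No TE is annotated within 10 kb of any of the 5 genes. The seed marker OLE1, also an oleosin, was listed at 0 in cc.

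Further members of the block, which was low in both CMT2/cc lines, are given next. The MADS-box genes AT1G59920 and AT1G59930, 98.8% identical, were at 0.637 TPM or less outside cc, where AT1G59920 was at 2.18 and 2.37 TPM and AT1G59930 at 2.49 and 2.64 TPM. AT3G29080 was at 7.80 and 7.79 TPM in cc alone, and the TE gene AT3G29078, 64 bases away, at 12.1 and 11.9 TPM in cc and at 0.0314 TPM or less elsewhere. Retrotransposon-derived genes in the block were AT1G34070, a Copia-like polyprotein gene (2.58 and 2.30 TPM in cc), and AT3G25720, related to reverse transcriptase (1.33 and 0.896 TPM in cc). Both were listed at 0 in every other group. AT4G05095, another reverse transcriptase gene, was low in neither CMT2/cc line, at 1.93 and 2.14 TPM in line 19, 3.04 and 1.16 in line 1, 3.14 and 3.94 in cc, against 1.07 and 1.26 in Col-0. With AT2G41590, AT2G02103, AT2G13450 and AT2G16676 these made 7 of the 75 genes whose annotation names a transposon domain, while 26 encode proteins annotated as uncharacterized.

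Members with known domains also included AT4G29200, a beta-galactosidase related gene (10.3 and 11.3 TPM in cc), AT1G77960, a ROX1-like repressor gene (9.88 and 7.56), AT4G18150, a putative kinase gene (4.80 and 5.18), AT2G05635, of the RAD3/XP-D helicases (5.35 and 3.75), AT1G36240, of the ribosomal protein L30e family (3.51 and 3.89), and AT1G60110, a mannose-binding lectin gene (3.60 and 3.18). All of them were low in both CMT2/cc lines. AT5G39493, of the self-incompatibility protein S1 family, was low in neither, at 0.825 and 0.693 TPM in line 19, 0.654 and 0.166 in line 1 and 1.21 and 1.56 in cc. Among the other members low in both lines, AT5G15360, AT3G29639, AT5G26970, AT2G29925 and AT5G45095 had cc means between 4.31 and 10.2 TPM. AT1G36920, AT1G36922, AT1G36272, AT5G15690, AT5G35050, AT3G30770, AT3G42723, AT4G04775, AT4G08593, AT1G37113 and AT3G22580 had cc means between 0.650 and 3.73 TPM. Weak members with other arrangements were AT2G05350 and AT2G03965, low in line 1 only, AT1G32225, low in line 19 only, and AT2G46765, low in neither, with cc means between 0.885 and 2.24 TPM.

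In 13 of the 75 genes at least 1 of the cc libraries was itself below 1 TPM, and for such genes a library listed at 0 cannot be told from a low level at this depth.

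At the threshold of the rule, the members just inside were AT5G35375, BHLH100 and AT4G05095, by margins of 1.00, 1.02 and 1.05 on the log2 scale. AT5G35375 was listed at 0 in every other group and was at 0.671 and 0.501 TPM in cc. The genes just outside were AT2G11405, AT4G04601 and CYP82C4 (AT4G31940), with margins of 0.998, 0.994 and 0.988. AT2G11405 and AT4G04601 were at 0.607 and 0.920 and 0.496 and 0.781 TPM in cc. CYP82C4, a cytochrome P450 of the iron deficiency response, was at 0 to 2.15 TPM in V1200R/cc, 61.8 and 38.5 TPM in line 19 of CMT2/cc, 24.8 and 27.5 in its line 1, 26.4 and 13.2 in cc, against 6.41 and 1.54 in Col-0.

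Chromosomal surroundings were not used by the rule. The members lie on all 5 chromosomes, 14, 18, 13, 8 and 22 on chromosomes 1 to 5 in that order. The 10 kb on either side of the 75 genes were covered by annotated TEs to a median of 18.2%, against 5.06% over the 20860 nuclear protein-coding genes tested. In 28 of the 75 genes (37.3%) TEs covered at least 40% of these flanks, against 4.32% of the nuclear genes tested, and 26 of the 75 (34.7%) overlapped a TE, against 13.6%. For the 57 derepressed genes that did not meet the rule, the median TE cover of the flanks was 7.22%, and 8.77% of them had flanks at least 40% TE. Of these 57 genes, 14 (24.6%) overlapped a TE. The flanks held no annotated TE at all in 8 of the 75 genes (10.7%), against 20.9% of the nuclear genes tested. Among the other 57 derepressed genes this share was 12.3%. The 8 genes include the 5 of the cluster with GRP19 and GRP20. None of these comparisons was tested, since genes near one another share their flanks.

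Genes low in both CMT2/cc lines and the other 31 had flanks with median TE cover of 17.7% and 19.2%, and densities of CHG sites of 54.7 and 59.1 per kb of gene, counted on both strands, where the nuclear genes tested had 62.2. The 75 genes were short, with a median length of 1430 bases against 2347 bases over the genes tested, and 30.7% had a single annotated exon, against 14.2%. This was not particular to them. The 57 derepressed genes that did not meet the rule had a median length of 1164 bases, and 31.6% had a single exon.

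**Figure D5:**
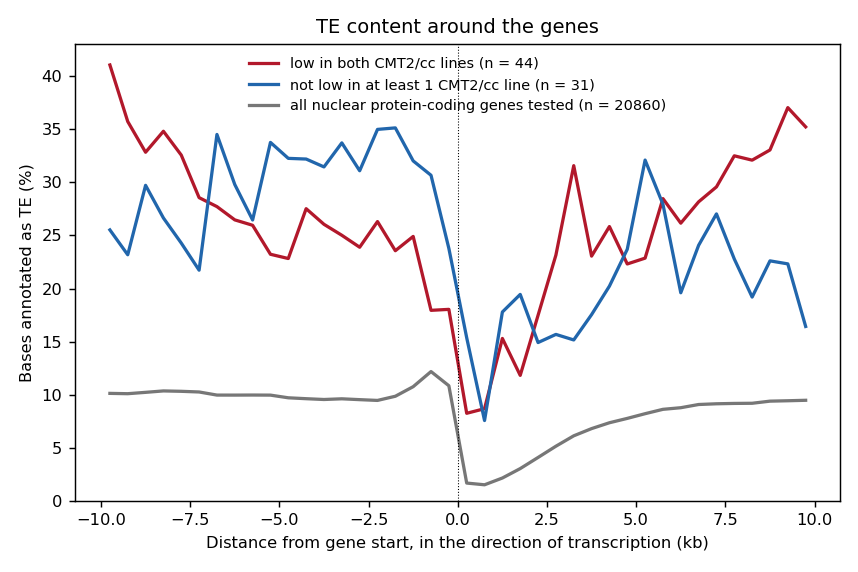
Mean percentage of bases annotated as TE in bins of 500 bases by distance from the gene start (kb, in the direction of transcription) for the 44 genes low in both CMT2/cc lines, the other 31 of the 75, and the 20860 nuclear protein-coding genes tested. Both curves of the 75 genes lie above the genes tested in every bin upstream of the start, and they cross each other.

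TEs and TE genes next to a member often shared its arrangement. Of the 75 genes, 18 (24.0%) had a TE or TE gene within 2 kb that itself met the rule, against 0.555% of the protein-coding genes tested. The same libraries chose these features and the members, so this share is a description and was not tested. In 19 of the 22 pairs of member and such a feature, both were low in the same CMT2/cc lines. The exceptions were AT2G40955 and AT4G15096, whose TEs were low in neither line, and AT2G19850. The TE AT2TE35840, 1560 bases from AT2G19850, was at 2.46 and 3.30 TPM in line 19, 4.70 and 5.44 in line 1 and 4.59 and 5.36 in cc, so it was high in line 1, where AT2G19850 was near 0. Some of these features overlap the member itself, and StringTie values of overlapping features share reads.

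A list of 12 genes known from other work to be controlled by DNA methylation was also examined. Only 4 of them passed the filter on low values, and 2 of these, QQS and MRU1, were members. Of all 20890 protein-coding genes tested, 75 were members. A list this short does not allow the shares to be compared. MRD1 was derepressed in cc but did not meet the rule, at 19.9, 35.3, 20.8 and 0 TPM in V1200R/cc, 33.2 and 0 TPM in line 19, 34.0 and 26.8 in line 1, 24.0 and 20.1 in cc, against 0.519 and 0.138 in Col-0. SDC and FWA, silenced by methylation in wild-type seedlings, were at 0.331 TPM or less in every library. None of the 14 tested genes of a list of 16 that encode the methylation machinery was a member or was called between the CMT2/cc lines. At an unadjusted p below 0.05 there were 4 of the 14, where 6.57% of all protein-coding genes passed: CMT2 had a lower value in line 19 (log2 fold change -0.56, SE 0.09, limma adjusted p = 0.083), and CMT3, MET1 and ROS1 had higher values (log2 fold changes 0.31, 0.22 and 0.36).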

How the data were processed

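Per the submitters' processing notes and methods, the authors used fastp for read filtering, HISAT2 2.0.0 for alignment against TAIR10, and StringTie. The deposited gene abundance files give coverage, FPKM and TPM per feature; the authors' TPM were analysed, their FPKM served as an alternative, and the coverage signal was used for depth only. Strand setting and treatment of reads with several alignments are not given in the sources used here. Sample titles gave groups and replicates. Whole counts are not used here, so limma 3.58.1 (R 4.3.3) was fitted to log2(TPM + 0.5) (6 group means, eBayes with a trend, Benjamini-Hochberg adjustment over 23614 features), a step also tested on simulated data. The authors used DESeq2, which needs counts. Positions, annotation and sequences came from RefSeq TAIR10.1, which places all 75 genes as the files do. Copies were aligned with blastn 2.17.0 and mafft 7.526; tables were made with Python 3.11.15, numpy 2.4.6, pandas 2.3.3, pyfaidx 0.9.0.4 and matplotlib 3.10.9.

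The genes, lists and tests were chosen with earlier results of these data known. Genes named are those called between the CMT2/cc lines, the 10 with the largest difference between them, the 10 highest in cc, the 10 closest to cc and the 5 furthest below cc in CMT2/cc, those at the threshold, those with a symbol, and copies, neighbours and list members. Others, named for their annotated domains or as TEs beside a member, and the iron list were chosen after their values were seen. Alternatives were pseudocounts of 0.1 and 1, other filters, FPKM, quantile normalization, margins of 0.5 and 2, no overlapping features, other fits and each library left out. Methylation data were not analysed here.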

Additional observations from a re-analysis of the deposited data

Results flagged for a closer look

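In 8 of the 75 genes the change from cc differed between CMT2/cc lines 19 and 1, by the limma test of line 19 against line 1. Of all 20890 protein-coding genes tested, 11 were called so. In the fit of the 4 CMT2/cc libraries alone only 3 of the 75 were called, OFP9 and its near-identical copies. Higher in line 19, on the log2 scale, were AT3G54730 by 5.78, OFP9 (AT4G04030) by 5.45, AT2G19850 by 4.67, AT2G02103 by 2.68, AT5G26270 by 1.57 and AT2G40955 by 1.19. In AT2G13450 the log2 fold change was -2.79 and in AT2G16676 it was -2.34, so both were lower in line 19. In all 8 genes both libraries of line 19 lay on the same side of both libraries of line 1. With 2 libraries a group, no sample could be tested for standing apart from its group.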

How the results depend on the processing

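The number of genes that meet the rule was 75, and it was 40 with a margin of 2, 125 with a margin of 0.5 and 43 without genes that overlap another listed feature. It was 99 without cc replicate 1 and 109 without cc replicate 2. With pseudocounts of 0.1 and 1 it was 109 and 53, and with FPKM 59. Those low in CMT2/cc line 19 (47) were 24, 80 and 73 with a margin of 2, a margin of 0.5 and a pseudocount of 0.1. Those low in line 1 (56) were 28, 95 and 34 with a margin of 2, a margin of 0.5 and no overlaps, and those low in both lines (44) were 22, 72 and 29 in the same settings. Those low in neither line (16) were 10 with a margin of 2 and 6 without overlaps. With a library left out they were between 14 and 25, the highest without cc replicate 2, where 109 genes met the rule. Counting copies over 90% identical once, a choice made after seeing the data, left 65 genes.

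Between the CMT2/cc lines, the fit of the 4 libraries alone called 3 of the 75 genes higher and 0 lower in line 19 (4 and 0 of all protein-coding genes; at an unadjusted p below 0.05, 4 of the 75 and 428 of all were lower by limma). With a mean of at least 1 TPM, 1 of the 75 and 1 of all genes were lower, and without overlapping features 4 of all genes were higher. Among members with at most 10% of their words elsewhere, also chosen after seeing the data, 2 were higher and 1 was lower. This set leaves out 24 of the 75 genes. The words of other genes were not examined, so no share over all genes can be set beside these counts. With a library left out, 6 to 13 protein-coding genes were higher (8 with all libraries, most without either line 1 library) and 2 to 8 lower (3 with all libraries, most without line 19 replicate 1). The numbers do not pair the libraries (correlation of deviations between same-numbered libraries from -0.068 to 0.11 over 15 pairs of groups). With the replicate number as a block, 5 members were higher and 2 lower, where 9 of all protein-coding genes were called. Depth limits the weakest genes, 13 of which had a cc library below 1 TPM. No call changed sign.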

Other observations

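FRO2, NAS2 and BHLH100 were followed through a list of 19 genes of iron uptake and its regulation, written after the values of these 3 members had been seen and therefore not tested as a list. Of the 18 genes of the list that passed the filter, 3 were among the 75. In 14 of the 18 genes both libraries of CMT2/cc line 19 lay above both of line 1 (18.8% of the protein-coding genes tested did). In 10 all 4 V1200R/cc libraries lay below both cc libraries (24.3%), and in 11 both cc libraries lay above Col-0 (27.1%). FRO2, NAS2 and BHLH100 are in both of these last counts because the rule required it, so those counts are a description. The median log2 fold change of line 19 over line 1 was 0.57 over the 18 genes, none of which was called by limma (6 had an unadjusted p below 0.05). IRT1 (AT4G19690), the main iron transporter of the root, held 11.6 and 6.83 TPM (line 9) and 2.68 and 0.787 TPM (line 15) in V1200R/cc, 118 and 101 TPM (line 19) and 57.9 and 73.7 TPM (line 1) in CMT2/cc, and 73.4 and 47.4 TPM in cc, against 24.5 and 13.9 TPM in Col-0. FER1 (AT5G01600), a ferritin that stores iron, held 375 to 513 TPM in V1200R/cc, 248 and 290 TPM (line 19) and 387 and 284 TPM (line 1) in CMT2/cc, and 424 and 505 TPM in cc, against 435 and 409 TPM in Col-0, and its CMT2/cc lines overlapped. Over 4 root markers the median log2 fold change of line 19 over line 1 was 0.13, with WER at 0.59, PIN2 at 0.28, EXP7 at -0.02 and SCR at -0.04. None of the 4 was called by limma, and WER, which had both line 19 libraries above both of line 1, had an unadjusted p of 0.014 (adjusted p = 0.62). The median difference of V1200R/cc from cc over the root markers was -0.37, and WER and SCR were below cc in all 4 V1200R/cc libraries. The part of root content in the iron genes' values was not tested.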
